A study of Drosophila melanogaster with 6 samples.

Results

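The comparison described here sets ovaries of wh7 flies against ovaries of w1118 flies, over every miRNA of the deposited count table. It was defined by its samples, 4 of the 6 libraries of the series, and by taking all 474 rows of the table, where a row is 1 mature miRNA on 1 precursor. Flies of the white-eyed strain w1118, called wild type in the labels, were the control, and wh7 flies carried a mutation of wuho in that same background. Both groups were adult, 7 days old, raised at 25 degrees and sampled as whole ovaries, with 2 libraries a genotype. The 2 mei-p26 libraries, from flies of the same background and age with a mei-P26 mutation, entered the fit so that all genotypes shared 1 estimate of the spread. The labels give neither the lesion of the wh7 allele nor the number of flies in a library, and leave it unsaid whether duplicates are separate collections, so that the spread behind each p-value is one between these libraries and may be technical.

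miRNAs are short RNAs cut from hairpin precursors. A hairpin can leave 2 mature products, named 5p and 3p for its arms, and the bases near the 5′ end, the seed, choose the target messenger RNAs. Precursors that lie together are often transcribed as 1 unit, and miRNAs with the same seed can act on the same targets, so a change can be read by genomic cluster and by seed family. The fly ovary holds germline cells inside a layer of somatic follicle cells. wuho encodes a WD40 repeat protein, the fly relative of WDR4, and is needed for fertility. A miRNA library does not measure its messenger RNA, so the mutation was not checked here.

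Sequencing depth was 152848 and 144175 counts for w1118 and 149520 and 228031 for wh7, so that a count of 0 allowed up to 3 counts, or 13.2 to 20.8 CPM (counts scaled to a common library total). This floor and the intervals on counts given here cover counting error only. Of the 474 rows, 218 had no count in these 4 libraries. The fit tested 150 rows after a filter on low counts, 109 rows with a count in these libraries were too low to test, and 132 rows would have passed with w1118 and wh7 alone, so some were tested only through mei-p26. Follicle cell miRNAs (miR-989, miR-279, miR-996, miR-318 and miR-994) summed to 345838 to 424496 CPM in the 4 libraries after TMM scaling, the scale of all CPM below. The ovary label could be set against nervous system markers (miR-124, miR-137, miR-210 and miR-219), which had 6 of 8 rows at 0. Their sum was 7.46 and 14.3 CPM in w1118 and 54.6 and 22.5 CPM in wh7. Markers of muscle and of gut and Malpighian tubule, taken up below, were not near 0. They summed to 10993 to 24079 CPM and to 2112 to 4671 CPM. In whole ovaries, fewer cells of a type and less RNA per cell cannot be told apart.

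In wh7 ovaries, 17 of the 150 rows were higher than in w1118 and 6 were lower (edgeR quasi-likelihood test, Benjamini-Hochberg adjusted p under 0.05). These are 14 and 6 mature miRNAs, because miR-6-3p has 3 rows and miR-281-3p 2. The share called was 15.3% of rows, with 11.3% higher and 4.0% lower. Under total-count scaling the split was 17 to 3. Groups of libraries did not overlap in all 23 called rows, and also in 59.3% of the rows tested (51 higher and 38 lower in wh7).

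**Figure D1:**
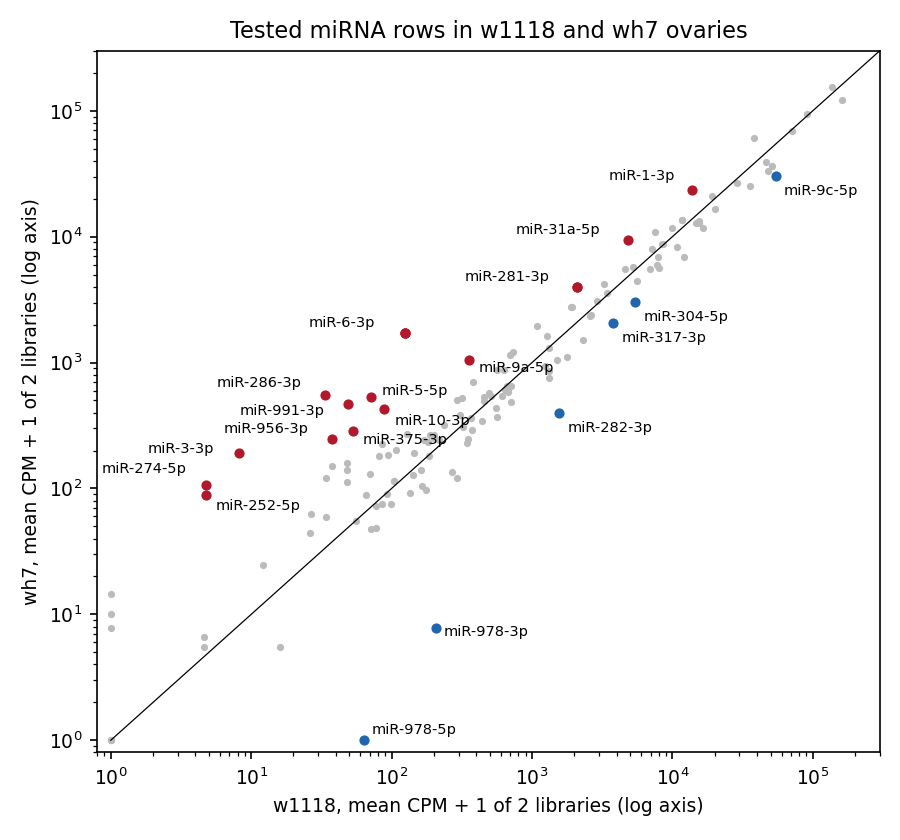
Mean CPM + 1 of the 2 w1118 libraries (x axis) against the 2 wh7 libraries (y axis), both on log axes, for the 150 tested rows, with called rows in red (17, higher in wh7) and blue (6, lower) and the line marking equal levels. The miR-309 cluster members and miR-991-3p lie well above the line, miR-978-3p and miR-978-5p well below it, and miR-31a-5p, miR-1-3p and miR-9c-5p close to it.

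The largest coordinated rise was that of the miR-309 cluster. This unit of 8 precursors is switched on from the zygotic genome of the early embryo, where its miRNAs help to clear maternal messenger RNAs. All 6 tested rows were called higher, against 11.3% of all rows tested, with a median log2 fold change of 3.79. Of these 6 rows, 3 are miR-6-3p, and their value sets the median. The rest, miR-286-3p, miR-5-5p and miR-3-3p, passed the low-count filter only through the wh7 libraries, where they were high. The count of calls was therefore partly set by the filter and says little beside the share over all rows. Counts of miR-6-3p, which in the embryo restrains cell death genes, were 11 and 23 in the w1118 libraries and 318 and 284 in the wh7 libraries. Its precursors share these reads, and the rows hold nearly the same counts. miR-286-3p had 3 and 6 counts in w1118 against 102 and 89 in wh7, and miR-5-5p had 13 and 6 against 96 and 92. In each of them both wh7 libraries stood above both w1118 libraries, and wh7 replicate 1 was the higher one after scaling (696 and 400.5 CPM for miR-286-3p, 655 and 414 CPM for miR-5-5p).

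Members of the cluster that were too low for the fit pointed the same way in counts. miR-3-3p was tested, at 0 and 2 counts in w1118 and 34 and 33 in wh7, a ratio of 24.8 with a 95% counting interval of 6.61 to 209. Below the filter, miR-309-3p summed to 2 counts in w1118 and to 15 in wh7, a ratio of 5.56 (1.29 to 50.1). miR-4-3p had 15 against 1, a ratio of 11.1 (1.71 to 468), and miR-5-3p had 18 against 1, a ratio of 13.3 (2.11 to 556). The 3 ratios carry no replicate test. Summed over its mature miRNAs, each counted once, the cluster stood at 224 and 272 CPM in w1118 and 3970 and 2340 CPM in wh7, a log2 change of 3.48 ± 0.40 (SE; edgeR quasi-likelihood test on cluster sums, adjusted p = 1.99e-13). This sum kept its call in all 6 fits that each omit a library. The rows of miR-6-3p and miR-286-3p did too, at adjusted p of up to 0.00379 and 0.00849. Without wh7 replicate 1 the calls of miR-5-5p (adjusted p = 0.0539) and miR-3-3p (adjusted p = 0.115) were lost.

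miR-991-3p was the called row of its cluster. The cluster joins the miR-310s, which share a seed with miR-92, to miR-991, miR-992 and miR-2498. miR-991-3p had 9 and 4 counts in w1118 and 67 and 106 in wh7, a log2 change of 3.28 ± 0.40 (edgeR, adjusted p = 3.63e-06), and passed without any 1 library (log2 fold change 2.60 to 4.11). The cluster had 11 tested rows, but 3 of these were at 0 in all 4 libraries and passed the filter through mei-p26, and miR-2498-5p had 3 counts in all. Among the rest, miR-991-3p was higher and 0 were lower. miR-312-3p was at 3314 and 3497 CPM in w1118 and 3424 and 3658 CPM in wh7, and miR-311-3p at 2053 and 3791 CPM against 3247 and 2952 CPM, where the groups overlap. miR-310-3p had a log2 change of -0.39 ± 0.32 (adjusted p = 0.471) and miR-313-3p one of -0.58 ± 0.44 (adjusted p = 0.443). Both arms of miR-992 and miR-991-5p were at 0 counts in these 4 libraries, and miR-2498-5p had 3 counts in wh7 replicate 2 alone. The cluster sum, which miR-991-3p scarcely enters, was at 7367 and 9968 CPM in w1118 and 9065 and 9067 CPM in wh7 (adjusted p = 0.648).

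miR-978 fell within the cluster of miR-972 to miR-979, a group known for its expression in testis. Its 3p arm had 30 and 26 counts in w1118 and 2 and 0 in wh7, a ratio of control to mutant of 37.8 (95% counting interval 9.98 to 319). The 5p arm had 9 and 8 counts against 0 and 0, which makes it at least 7.64-fold lower in wh7 when the wh7 pair is set at its floor of 3 counts. In w1118 the other members of the cluster had at most 3 counts each, and in wh7 at most 1, so that the fall of the cluster sum from 321 and 272 CPM to 27.3 and 4.50 CPM (log2 fold change -4.54 ± 0.71, adjusted p = 3.86e-08) was that of miR-978. miR-978-3p and the cluster sum passed without any 1 library. The call of miR-978-5p was lost without any 1 library: it gave a value in 1 of those 6 fits (adjusted p = 0.227) and was under the low-count filter in the other 5.

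Other testis-enriched clusters had no call. In the list of such miRNAs, 0 of 17 tested rows were higher in the edgeR test and 2 lower, or 11.8% called. Over all rows tested 15.3% were called, 11.3% higher and 4.0% lower. The 2 lower rows are both of miR-978 and passed the low-count filter through w1118, where they were high. The median log2 fold change of the list was 0.13 against 0.08 over all rows tested. Some of these rows passed the filter through mei-p26 and had little room for a call, so the count and the median say little of them. For example, miR-984-5p was at 0 and 7.17 CPM in w1118, 6.82 and 4.50 CPM in wh7, and 106 and 111 CPM in mei-p26. miR-983-5p, the most abundant member of the cluster of miR-303 and miR-982 to miR-984, had 20 and 8 counts in w1118 and 18 and 23 in wh7. miR-962-5p, of the cluster of miR-959 to miR-964, had 52 and 35 counts against 39 and 78. In both the ranges overlap. miR-303-3p had 0 counts in w1118 and 5 in wh7.

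**Figure D2:**
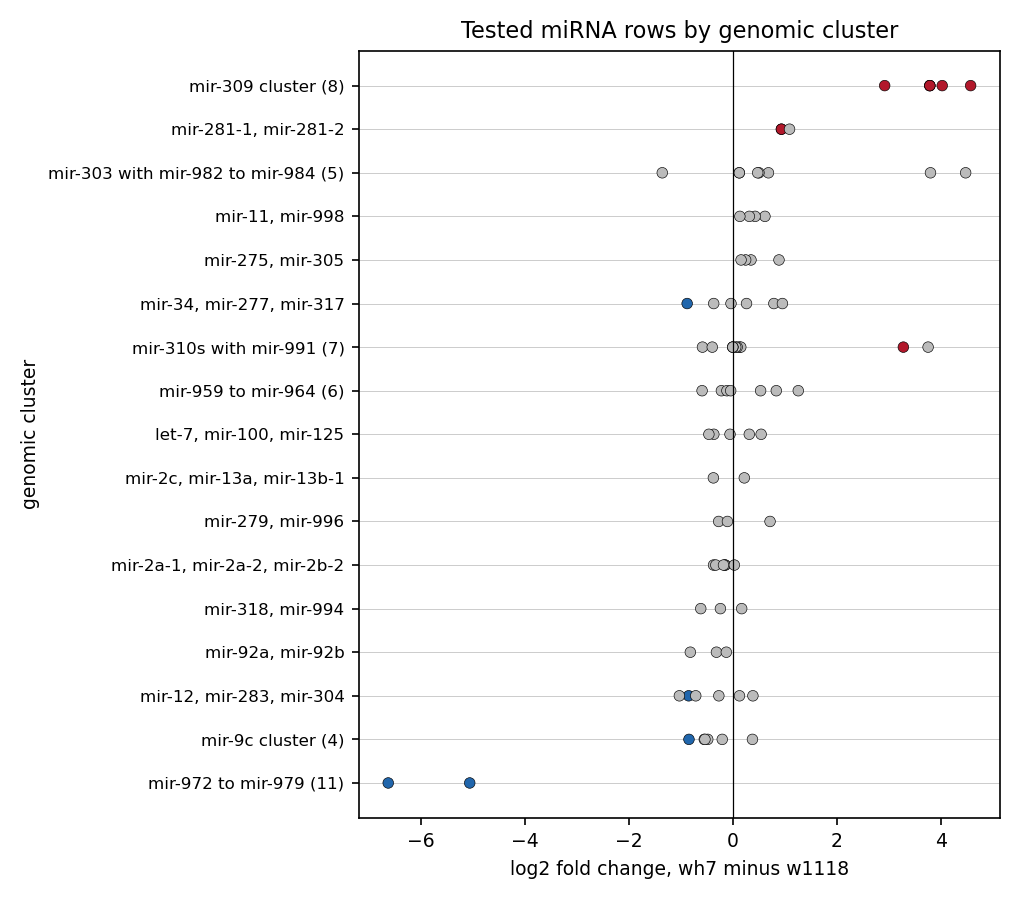
Log2 fold changes (wh7 minus w1118) of the tested rows of each genomic cluster with at least 2 of them, 1 point a row, red where called higher, blue where called lower and grey otherwise; numbers after a label count its precursors. The miR-309 cluster is the one whose tested rows were all called higher, and the miR-972 to miR-979 cluster the one whose tested rows were all called lower.

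Falls called among abundant miRNAs were moderate, with 1 called row in each of 3 clusters. miR-9c-5p was at 69862 and 39176 CPM in w1118 and 29788 and 31053 CPM in wh7, a log2 change of -0.84 ± 0.27 (edgeR, adjusted p = 0.0383). Its precursor lies in an intron of grp, which encodes the fly Chk1 checkpoint kinase, with those of miR-306, miR-79 and miR-9b. miR-9b-5p had a log2 change of -0.55 ± 0.25 (adjusted p = 0.157), miR-306-5p of -0.48 ± 0.23 (adjusted p = 0.171) and miR-79-3p of -0.53 ± 0.29 (adjusted p = 0.229). These arms fell too, without a call, while miR-79-5p was at 209 and 150 CPM in w1118 and 218 and 247 CPM in wh7. The cluster sum went from 165550 and 116025 CPM in w1118 to 88669 and 93016 CPM in wh7. Without w1118 replicate 1, in which miR-9c-5p was highest, its log2 fold change was -0.25. That call was lost without mei-p26 replicate 2, w1118 replicate 1 or any wh7 library (highest adjusted p 0.675), as well as by total-count scaling (adjusted p = 0.0905).

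miR-304-5p, from an intron of Gmap beside miR-12 and miR-283, was at 6732 and 4156 CPM in w1118 and 2585 and 3456 CPM in wh7 (-0.85 ± 0.28). Its neighbour miR-12-5p was at 22101 and 18180 CPM against 15409 and 18044 CPM, and miR-283-5p at 5531 and 5031 CPM against 5382 and 6165 CPM, so that the genotypes overlap in miR-283-5p and nearly touch in miR-12-5p. The call of miR-304-5p was lost without the same 4 libraries as that of miR-9c-5p (highest adjusted p 0.649), as well as by total-count scaling (adjusted p = 0.111). miR-317-3p was at 4008 and 3583 CPM in w1118 and 2271 and 1867 CPM in wh7 (-0.88 ± 0.25, adjusted p = 0.0207). The other members of its cluster had no call. miR-277-3p, a regulator of branched-chain amino acid breakdown, had 0.79 ± 0.40 (adjusted p = 0.197), and miR-34-5p, known from ageing and the nervous system, 0.26 ± 0.24 (adjusted p = 0.536). The fall of miR-317-3p was lost without w1118 replicate 1 or either wh7 library, at adjusted p of up to 0.406.

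miR-282-3p was at 2276.5 and 846 CPM in w1118 and 321 and 472 CPM in wh7, a log2 change of -1.96 ± 0.53 (edgeR, adjusted p = 0.0128). The control libraries differ from each other by more than the lower of them differs from wh7. The other arm, miR-282-5p, is the main product, at 15316 and 8979 CPM against 5648 and 8073 CPM (-0.82 ± 0.37, adjusted p = 0.157). The call of miR-282-3p was lost without w1118 replicate 1 or wh7 replicate 1 (adjusted p of up to 0.320), by total-count scaling (adjusted p = 0.111) and in DESeq2.

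Rises of miRNAs that stand alone in the genome made up 8 of the 17 rows. miR-10, encoded in the Hox gene complex, had both arms up in counts. Its 3p arm had 12 and 12 counts in w1118 and 52 and 112 in wh7 (log2 fold change 2.29 ± 0.53, edgeR adjusted p = 0.00416), and the 5p arm had 10 and 13 against 27 and 58 (1.41 ± 0.56, adjusted p = 0.0985). miR-9a-5p, which keeps sensory precursor cells in check, had 55 and 41 counts against 118 and 288 (1.58 ± 0.35, adjusted p = 0.00342). miR-31a-5p was at 5158 and 4572 CPM in w1118 and 9468 and 9288 CPM in wh7 (0.95 ± 0.24, adjusted p = 0.00672).

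The other members of this group, apart from miR-1-3p, were scarce in the control. miR-375-3p had 11 and 3 counts in w1118 and 38 and 68 in wh7, and miR-956-3p had 4 and 6 against 26 and 69. miR-274-5p had 1 and 0 counts against 15 and 24, a ratio of 28.9 (counting interval 4.89 to 1171), and miR-252-5p had 1 and 0 against 17 and 13, a ratio of 22.2 (3.70 to 908). miR-314-3p, encoded on the other strand beside miR-956, had 6 and 3 counts against 12 and 35 (1.87 ± 0.73, adjusted p = 0.0976). Each called member of these 2 paragraphs was lost without w1118 replicate 2. Also, miR-9a-5p and miR-956-3p were lost without wh7 replicate 2, miR-375-3p and miR-252-5p without wh7 replicate 1, and miR-31a-5p without either wh7 library. The adjusted p then reached 0.0926 for miR-10-3p, 0.0977 for miR-9a-5p, 0.320 for miR-31a-5p, 0.221 for miR-375-3p, 0.0930 for miR-956-3p, 0.0735 for miR-274-5p and 0.228 for miR-252-5p. The log2 fold change of miR-10-3p stayed between 2.04 and 2.44 whichever library was left out.

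miR-1-3p and miR-281-3p, markers of other tissues, were higher in wh7 as well. miR-1-3p, the miRNA of muscle, was at 16816 and 10878 CPM in w1118 and 22981 and 23998 CPM in wh7 (0.76 ± 0.25, edgeR adjusted p = 0.0387). miR-281-3p, a product of gut and Malpighian tubule whose precursors lie in an intron of Oda, was at 1911 and 2250 CPM against 3683 and 4270 CPM (0.93 ± 0.28, adjusted p = 0.0218). Over the whole muscle list of miR-1 and miR-133, 1 of 2 tested rows was called higher, beside 11.3% of all rows tested. Both tested rows are arms of miR-1, with positive log2 fold changes. miR-133-3p was too low to test, at 22.4 and 7.17 CPM in w1118 and 6.82 and 13.5 CPM in wh7. The sum of the list, nearly all of it miR-1-3p, ran from 10993 to 16861 CPM in w1118 and from 23097 to 24079 CPM in wh7. For the miR-281 list, 2 of 3 tested rows were called higher, both of miR-281-3p and holding the same counts. The other row, miR-281-2-5p, was at 164 and 93.2 CPM in w1118 and 225 and 319 CPM in wh7, without a call. The sum of this list, with miR-281-3p counted once, ran from 2112 to 2350 CPM and from 3936 to 4671 CPM. The part of such tissue in the other rises was not tested. The call of miR-1-3p was lost without mei-p26 replicate 2, w1118 replicate 2 or any wh7 library (log2 fold change 0.30 to 1.22) and also with relative log expression scaling and DESeq2, and that of miR-281-3p without any of the 4 libraries of the comparison (0.86 to 0.96).

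**Figure D3:**
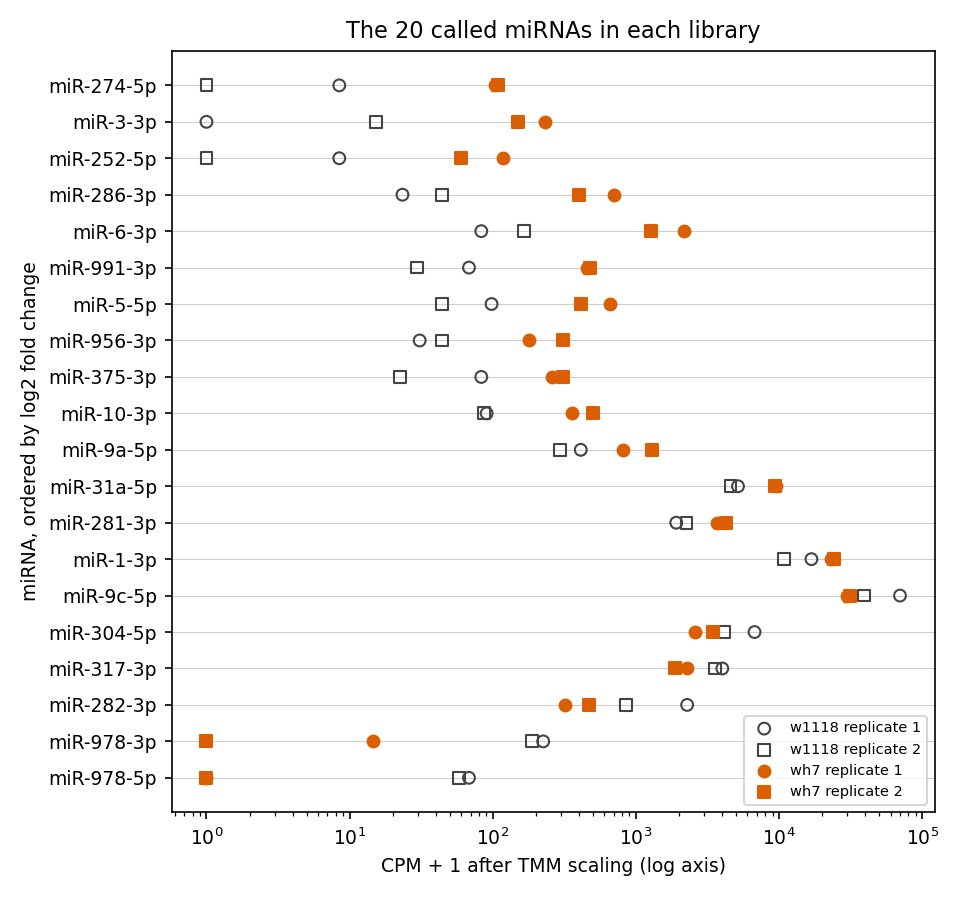
CPM + 1 after TMM scaling (log x axis) of the 20 called miRNAs in each library, open symbols for w1118 and filled for wh7, circles for replicate 1 and squares for replicate 2. Groups do not overlap in any of the 20, and the gap between them is narrow for miR-9c-5p and miR-304-5p, whose higher control library is replicate 1.

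By seed family, several of the miRNAs that rose were minor members of families led by abundant ovarian miRNAs. No mature sequences were at hand, so the families are textbook ones and no seed was read. miR-6-3p belongs with miR-2, miR-13, miR-11 and miR-308 to the K box family, named for the target motif it pairs with. It made up 0.181% and 0.331% of that family's counts in w1118 and 4.35% and 2.41% in wh7. The family's sum was at 45388 and 49861 CPM in w1118 and 49815 and 53030 CPM in wh7 (log2 fold change 0.01 ± 0.25, edgeR quasi-likelihood test on family sums, adjusted p = 0.998). Sums were scaled anew for their fits, so their log2 fold changes need not match their CPM, which keep the scaling of the rows. miR-286-3p rose from 0.0507% and 0.0964% to 1.75% and 0.984% of the family it forms with miR-279-3p and miR-996-3p, whose sum had a log2 change of -0.24 ± 0.24 (adjusted p = 0.559). miR-3-3p and miR-309-3p together with miR-318-3p form another family, in which miR-318-3p held at least 99.8% of counts in every library (sum 0.07 ± 0.28, adjusted p = 0.897).

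Within the miR-9 family the members went different ways. miR-9a-5p, called higher, rose from 0.320% and 0.376% to 1.29% and 1.95% of the family, and miR-9c-5p, called lower, held 54.5% and 50.1% in w1118 and 47.6% and 46.7% in wh7. The sum, at 128208 and 78195 CPM in w1118 and 62578 and 66516 CPM in wh7, had a log2 change of -0.79 ± 0.30 (edgeR adjusted p = 0.131). The miR-31 family rose as a sum (0.79 ± 0.24, adjusted p = 0.0497), which scaling by relative log expression left just short (adjusted p = 0.0504). In it miR-31a-5p held 91.2% and 91.8% of counts in w1118 and 94.6% and 94.7% in wh7, and miR-31b-5p, at 500.1 and 408 CPM against 546 and 522 CPM, had no call (adjusted p = 0.757). Reads of such close paralogs may be split between them. The sum was also lost without mei-p26 replicate 2, w1118 replicate 1 or any wh7 library, at adjusted p of up to 0.374. Of 128 units in this fit, 10.9% passed. miR-276a-3p, a memory gene in the brain that made up 99.8% to 99.9% of its pair with miR-276b-3p, was at 30498 and 46400 CPM in w1118 and 60456 and 60172 CPM in wh7 (0.65 ± 0.26, adjusted p = 0.0976 among the rows).

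Summing by cluster gave 62 units, of which 12 were higher and 9 lower in the edgeR test (33.9%, with 19.4% higher and 14.5% lower). The lower calls hung on the scaling. Relative log expression gave 14 higher and 3 lower, and both total counts and the factors of the single miRNA rows gave 14 and 2, as the median log2 fold change over units moved from -0.12 to 0.04, 0.16 and 0.08 in that order. Under all of these scalings 14 sums passed, 12 higher and 2 lower, and the lower were miR-972 to miR-979 and miR-282. Beside units already described, the higher ones were miR-87 and miR-314, each with 1 tested row, of which miR-87-3p had 6 and 4 counts in w1118 and 26 and 27 in wh7 (row adjusted p = 0.0801). Bantam, the miR-9c cluster, miR-989, miR-190, miR-986 and miR-999 with miR-4969 passed as lower with the first scaling and in 0 of the 3 others, and miR-33 in 1. Of the 21 sums called, 2 passed without any 1 library, the miR-309 cluster and the miR-972 to miR-979 cluster. The number of calls was 10 without w1118 replicate 1, 6 without w1118 replicate 2, 7 without wh7 replicate 1 and 6 without wh7 replicate 2.

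By abundance, the top of the ovarian profile held 2 calls. The 15 most abundant rows held 77.3% and 75.9% of counts in w1118 and 75.6% and 74.5% in wh7. miR-318-3p, a follicle cell miRNA, was at 134948 and 140575 CPM against 163341 and 146915 CPM (0.17 ± 0.24, edgeR adjusted p = 0.699), and miR-989-3p, needed for border cell migration, at 184628 and 138039 CPM against 125647 and 118264 CPM (-0.40 ± 0.24, adjusted p = 0.272). miR-14-3p, which tunes ecdysone signalling, had 0.06 ± 0.24 (adjusted p = 0.915) and miR-8-3p, a growth regulator of the fat body, -0.03 ± 0.23 (adjusted p = 0.966). The growth-promoting bantam-3p was at 56151 and 46342 CPM in w1118 and 33049 and 40197 CPM in wh7 (-0.48 ± 0.23, adjusted p = 0.162), with no overlap between groups. Of these 15 rows, miR-9c-5p and miR-1-3p passed, and the other 13 had log2 fold changes from -0.55 (miR-9b-5p) to 0.65 (miR-276a-3p).

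Rows of at least 10000 CPM, by the mean over the 4 libraries, held 83.9% ± 1.06 of counts in w1118 and 82.5% ± 0.170 in wh7 (SD, n = 2; exact two-sided permutation test, p = 0.33). This is the smallest p that 2 libraries against 2 allow. Rows of 1000 to 10000 CPM held 13.8% ± 0.920 and 14.2% ± 0.124 (exact p = 1), and those of 100 to 1000 CPM 2.10% ± 0.138 and 2.98% ± 0.263 (exact p = 0.33). Rows under 100 CPM held 0.203% ± 0.000289 and 0.302% ± 0.0312 (exact permutation p = 0.33). In the class of 100 to 1000 CPM the difference was 0.878 percentage points. It was 0.598 with 1 row for each mature miRNA, since miR-6-3p is then counted once. Rows called were 2 of 21 in the highest class, 5 of 33, 11 of 64 and 5 of 32 in the lowest, or 9.52%, 15.2%, 17.2% and 15.6%, beside 15.3% over all.

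Replicates of w1118 differed more than those of wh7. The median absolute log2 difference between the 2 libraries of a genotype was 0.414 in w1118 and 0.225 in wh7 over 136 tested rows with counts in all 4 libraries, and that between the genotype means was 0.481. At 10000 CPM and above, where the counts are deepest, the control replicates differed by 0.299, the wh7 replicates by 0.0952 and the genotypes by 0.241. In that class the value between genotypes lay below that between control libraries and above that between wh7 libraries. It sets means of 2 libraries against each other and the other values single libraries, so the measures are unlike. Of the calls, 7 were lost without w1118 replicate 1 (2 rises and 5 falls), 11 without w1118 replicate 2 (10 and 1), 13 without wh7 replicate 1 (8 and 5) and 10 without wh7 replicate 2 (6 and 4). Both libraries of each pair differed by more than sampling noise (chi-square over its degrees of freedom 45.7 in w1118 and 9.86 in wh7).

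**Figure D4:**
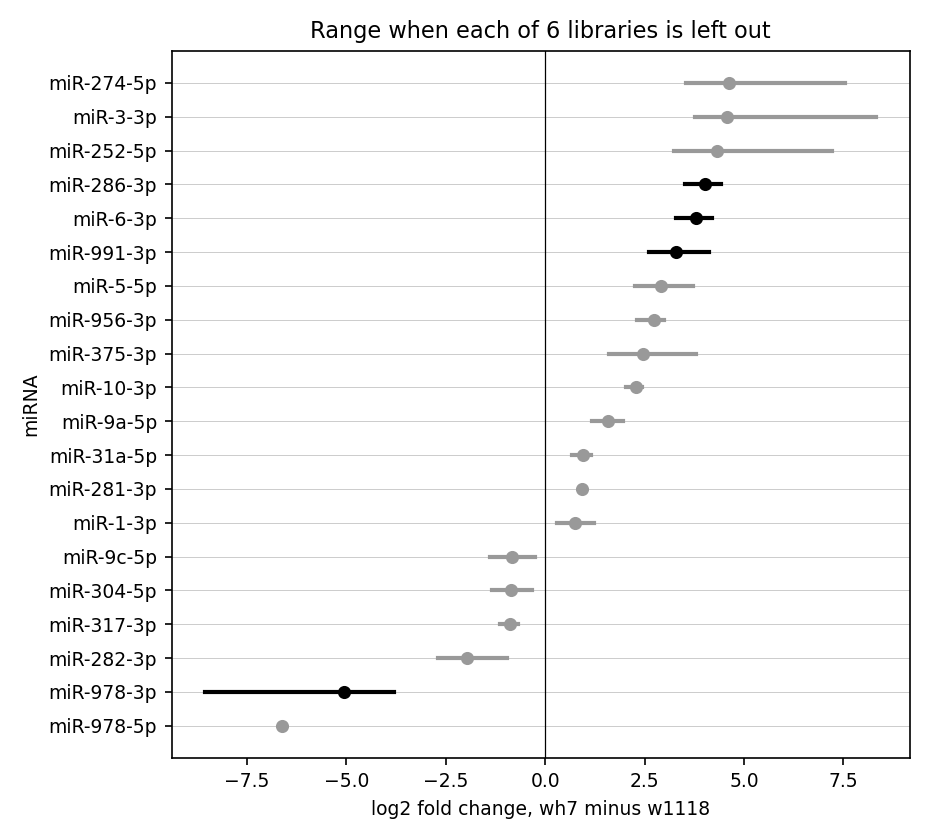
Log2 fold change (wh7 minus w1118) of the 20 called miRNAs with all 6 libraries (point) and its range when each library is left out in turn (bar), black where the call held in all 6 such fits and grey where it was lost in at least 1. Black marks miR-286-3p with miR-6-3p, miR-978-3p and miR-991-3p; miR-978-5p gave a value in 1 such fit only.

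Place in the genome was read from a later annotation, for neighbours and hosts alone. Rows whose precursor lies in an intron of a protein-coding gene on its strand had 2 calls higher and 2 lower among 52 tested (7.69%). Their median log2 fold change was -0.15. Rows outside protein-coding genes had 15 calls higher and 4 lower among 92 (20.7%), with a median of 0.26. Over all rows tested, 15.3% were called and the median was 0.08. The miR-309 cluster accounts for 6 of the higher calls outside protein-coding genes. Intronic miRNAs summed to 305491 and 244339 CPM in w1118 and to 205025 and 214119 CPM in wh7, of which the miR-9c cluster in grp gave 165550 and 116025 CPM and 88669 and 93016 CPM. Rows of clustered precursors passed in 14 of 87 (16.1%) and those of lone precursors in 9 of 63 (14.3%), both near the 15.3% over all rows tested.

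Among the remaining lists, regulators of the germline (miR-7, miR-34, miR-184, miR-278 and bantam) had 0 of 9 tested rows called by edgeR, with a median log2 fold change of 0.26, and follicle cell miRNAs had 0 of 8, with a median of -0.17. The let-7 complex, which times development under ecdysone, had 0 of 5 and a median of -0.05, and miR-8 with miR-14 had 0 of 4 and a median of 0.02. With 15.3% of all tested rows called, 0 calls in lists of 4 to 9 rows do not set these lists apart from the rest. miR-7-5p, which acts on germline stem cell division, was at 17607 and 13508 CPM in w1118 and 13581 and 13302 CPM in wh7, and let-7-5p at 10375 and 11115 CPM against 8465 and 8235 CPM.

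Arm use was compared by the log2 ratio of 5p to 3p counts, 1 being added to both, for 50 precursors. In limma 1 passed (2.00%), mir-991, whose 5p arm had no count in any of the 4 libraries, so that its ratio holds the 3p count alone and says nothing of the 5p arm. The next were mir-965, at -3.78 and -4.04 in w1118 and -2.76 and -2.90 in wh7 (difference 1.08 ± 0.31, limma adjusted p = 0.180), and mir-277, at 0.07 and 0.56 against -0.60 and -1.03 (-1.13 ± 0.35, adjusted p = 0.180). Both pairs stand apart without overlap. In mir-277 the 3p arm was the more frequent in both wh7 libraries. The 5p arm led in w1118 replicate 2, and in w1118 replicate 1 the arms were nearly equal (306 CPM for 5p and 291 CPM for 3p). Both precursors were picked here with their values in view.

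The direct contrast of wh7 with mei-p26, taken from the same fit, called 27.3% of rows. Of the 23 rows called against w1118, 13 differed between the mutants, 10 of them higher in wh7. They were the 6 rows of the miR-309 cluster, both of miR-281-3p, miR-956-3p and miR-10-3p. miR-6-3p, with 318 and 284 counts in wh7, had 21 and 15 in mei-p26, and miR-286-3p had 102 and 89 against 4 and 4 (log2 fold change 5.12, edgeR quasi-likelihood test, adjusted p = 6.15e-07). The 3 lower in wh7 were miR-991-3p, miR-31a-5p and miR-317-3p. miR-991-3p had 67 and 106 counts in wh7 and 5856 and 4657 in mei-p26 (-5.42, adjusted p = 4.51e-11), and miR-317-3p had 333 and 415 against 1191 and 1327 (-1.20, adjusted p = 0.000641). For the other 10, among them both arms of miR-978, miR-274-5p, miR-252-5p and miR-9a-5p, no difference between the mutants passed.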

How the data were processed

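Small RNA libraries of ovaries were made with the QIAseq miRNA kit, which adds a unique molecular identifier to each cDNA, with single-end sequencing, per the labels' protocols. The submitters' processing notes name bcl2fastq 2.20, Trimmomatic and the build BDGP5; aligner, counting tool and handling of identifiers were not given in the sources used here. Per the file headers, the deposited table holds raw read counts per mature miRNA and precursor. Its other columns, the authors' means (a score here), CPM, signed fold and p-values, were not used. Reads that fit several precursors may be counted on each. The control columns are headed W118 and were taken as w1118.

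Counts of all 6 libraries were fitted in edgeR 4.0.16 (R 4.3.3) with TMM scaling (factors 0.877 to 1.16), filterByExpr with a minimum count of 10, the quasi-likelihood test and Benjamini-Hochberg adjustment at 0.05 over all rows tested. Tested rows held 99.9% of counts in the library where that share was lowest. Each SE was derived from the F statistic, as the absolute log2 change divided by its square root. Sums took 1 row per mature name and were scaled anew by TMM in their fits, whereas their CPM keep the factors of the rows. Clusters joined precursors on 1 strand with gaps of at most 10 kb in the BDGP6 annotation, which matched all but 1 of 256 precursors and served for neighbours and hosts alone. Seed families, planned from sequences, were replaced by textbook families. Arm ratios were tested in limma 3.58.1 where each arm had a mean count of at least 10. Scripts were tested on simulated data. Alternatives were other scalings, filters of none or a mean count of 50, DESeq2 1.42.0, w1118 and wh7 alone, a replicate block, a threshold of 0.1, and each library left out. Named miRNAs are all calls, the 15 most abundant, tested members of clusters and families with a call, and leading list members. Members and lists were chosen with earlier results of these data known.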

Additional observations from a re-analysis of the deposited data

How the results depend on the processing

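The 23 calls became 9 with the stricter filter (mean count 50 or more), and 10 to 30 when each library was left out; they were 22 with relative log expression, 20 with total counts, 23 with no filter, 20 with DESeq2, 31 with w1118 and wh7 alone, 31 at a threshold of 0.1 and 20 with 1 row per mature miRNA (added after seeing the data). Of 982 values of named rows, sums and families under alternatives, 801 kept their call status, 169 lost the call and 12 gained it. Of values called in the main or the alternative fit, 0 changed sign. Uncalled values that changed sign count among the 801, such as the K box sum (log2 fold change 0.01, and -0.05 to 0.22 with a library left out). The 21 cluster sums became 7 with the stricter filter, 13 with DESeq2, and 6 to 22 with a library left out. The 14 family units became 6 with the stricter filter and 2 to 26 with a library left out. Among single miRNAs, miR-252-5p, miR-282-3p and miR-1-3p lost the call in DESeq2, miR-317-3p, miR-304-5p and miR-1-3p with no filter, and miR-1-3p with relative log expression. The single arm call was lost (0 calls) under the stricter filter on both arms, with w1118 and wh7 alone and with the replicate block, and ran from 0 to 5 with a library left out. The share of rows of 100 to 1000 CPM differed by 0.598 points with 1 row per mature miRNA. The cause of these shifts was not tested beyond the fewer rows or libraries of each fit. The labels number the replicates alike, but same-numbered w1118 and wh7 libraries deviated in opposite directions (correlation of replicate differences -0.328 over 150 rows), so the numbers were not taken as pairs; with the replicate block 26 rows passed, and 30 with the crossed pairing, added after seeing the data. Sums by seed read from sequences, with seeds of bases 2 to 7, were not run for want of sequences. With 144175 to 228031 counts a library, rows of a few counts carry wide intervals.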
